A study of Mus musculus with 8 samples.

Results

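The heavy chain constant genes of the mouse are 8 genes on chromosome 12: Ighm, Ighd, Ighg3, Ighg1, Ighg2b, Ighg2c, Ighe and Igha. They were taken by name from an expression table of 41018 genes, and all 8 were found. The family was chosen by the authors' fold changes and p-values for these samples, as known from an earlier account of them. Those columns were not used, and no difference between the treatments was tested.

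The samples were CD11b+ bone marrow (BM) cells of C57BL/6 female mice aged 5 to 8 weeks. Of the 8 samples, 4 came from PC-EV-educated mice and 4 from PBS mice. Education meant retro-orbital injection of 5 µg of extracellular vesicles (EVs) from PAN02, a mouse pancreatic cancer cell line, 3 times per week for 3 weeks, and PBS mice received PBS by the same route. CD11b is an integrin chain carried by monocytes, macrophages, granulocytes and some lymphoid cells, and the cells were pulled out with CD11b magnetic beads. In the qPCR of such cells each point was a pool of at least 5 animals, and the number of animals behind each RNA-seq library was not given.

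An antibody is built of paired heavy and light chains. The heavy chain constant gene decides the class: IgM, IgD, the IgG subclasses, IgE or IgA. A B cell first splices its rearranged variable exon to Ighm and Ighd, and class switch recombination can later replace them with a gene further downstream by deleting the DNA in between. Cells of the B lineage make these transcripts, and plasma cells, many of which reside in BM, make them in very large amounts. The products act on myeloid cells through Fc receptors, which bind the constant part.

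Each gene had 1 deposited expression level, the larger of the PC-EV-educated and the PBS group mean. Its unit was found to be RPKM, that is counts per kilobase of gene and per M counts of a library, where M stands for mega. A level multiplied by the gene's length fell on 8 steps, each worth 1 count in 1 library, and these steps gave library totals of 42.2 M to 53.5 M counts. Counts were only ever added up within 2 sets of 4 libraries: all 12 pairs within a set were summed in at least 76 genes each, and the 16 pairs across the sets in 0 genes. Whole counts per library could therefore be read back for 7 of the 8 members. The first set held the libraries of 53.5 M, 48.9 M, 46.6 M and 42.3 M counts, and the second those of 49.2 M, 47.9 M, 42.7 M and 42.2 M. The set behind a gene's level is the one with its larger group mean, and the gene's values in the other set were not recovered. Which set was PC-EV-educated and which was PBS is not given by a label, and was not inferred. Libraries are therefore named by their totals, and their values are given without a mean ± SD or a test. Intervals cover counting error only.

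The members lay within 167.901 kb on the minus strand (GRCm38), in the order Ighm, Ighd, Ighg3, Ighg1, Ighg2b, Ighg2c, Ighe and Igha in the direction of transcription. The gap between Ighm and Ighd was 2.233 kb, the gap between Ighd and Ighg3 was 45.371 kb, and those further down shortened to 25.7, 17.306, 14.032, 12.076 and 9.023 kb. No other gene of the expression table lay between them. The 4 IgG genes are the members most alike in sequence. They differ most visibly in the hinge, a short exon between the first and the second constant domain whose cysteines join the heavy chains to each other. These exons are printed because they show how far the transcripts of the 4 IgG genes can be told apart. They are exon 2 of GENCODE M21 transcripts, on the minus strand, and capitals mark in-frame cysteine codons.
Ighg3, chr12:113360529-113360576: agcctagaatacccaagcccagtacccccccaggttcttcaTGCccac
Ighg1, chr12:113329844-113329882: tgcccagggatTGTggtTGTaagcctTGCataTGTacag
Ighg2b, chr12:113307261-113307326: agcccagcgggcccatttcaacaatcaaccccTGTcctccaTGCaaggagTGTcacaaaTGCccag
Ighg2c, chr12:113288263-113288325: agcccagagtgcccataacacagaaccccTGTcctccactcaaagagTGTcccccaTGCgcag
The Ighg3 hinge had 1 cysteine codon in 48 bases, that of Ighg1 had 4 in 39 bases, that of Ighg2b had 4 in 66 bases and that of Ighg2c had 3 in 63 bases. Ighg2b and Ighg2c, the closest pair, shared 77.3% of hinge bases and 86.2% of the bases of the secreted form. The other IgG pairs shared 72.5% to 74.7% of the secreted form. Pairs that included a gene of another class shared 38.5% to 53.5%. No stretch of 150 bases was common to the annotated transcripts of any pair of members. Introns were not compared.

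Ighm, which encodes the µ chain of IgM and is the first heavy chain a B cell makes, was the highest of the family. The authors' mean was 31.9 RPKM for Ighm (ENSMUSG00000076617, chr12:113418558-113422730), and 96.6% of the 28225 genes with a level above 0 lay below it. Ighm held 89.1% of the summed level of the 8 members, 35.8 RPKM. This sum adds means that can come from different groups, and the length behind the level of Ighm was not recovered. Its counts per library could not be read back, because too many combinations of large counts give the same mean. If its level was divided by the genomic span, as for the other members, it rested on 22494 to 28500 counts over 4 libraries.

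Igha, the α chain of IgA, a class secreted at mucosal surfaces, followed with an authors' mean of 3.05 RPKM (ENSMUSG00000095079, chr12:113254830-113260236). It lies last in the locus and yet stood above all members between it and Ighm. The level of Ighm was 10.5 times that of Igha. The 4 libraries behind the Igha mean, all of the first set, held 642, 951, 976 and 572 counts in the 53.5 M, 48.9 M, 46.6 M and 42.3 M libraries. On the RPKM scale these were 2.22, 3.60, 3.87 and 2.50. The 46.6 M and 48.9 M libraries were thus the higher pair and the 53.5 M and 42.3 M libraries the lower pair. Igha was the member with the deepest recovered counts, 3141 in all.

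**Figure D1:**
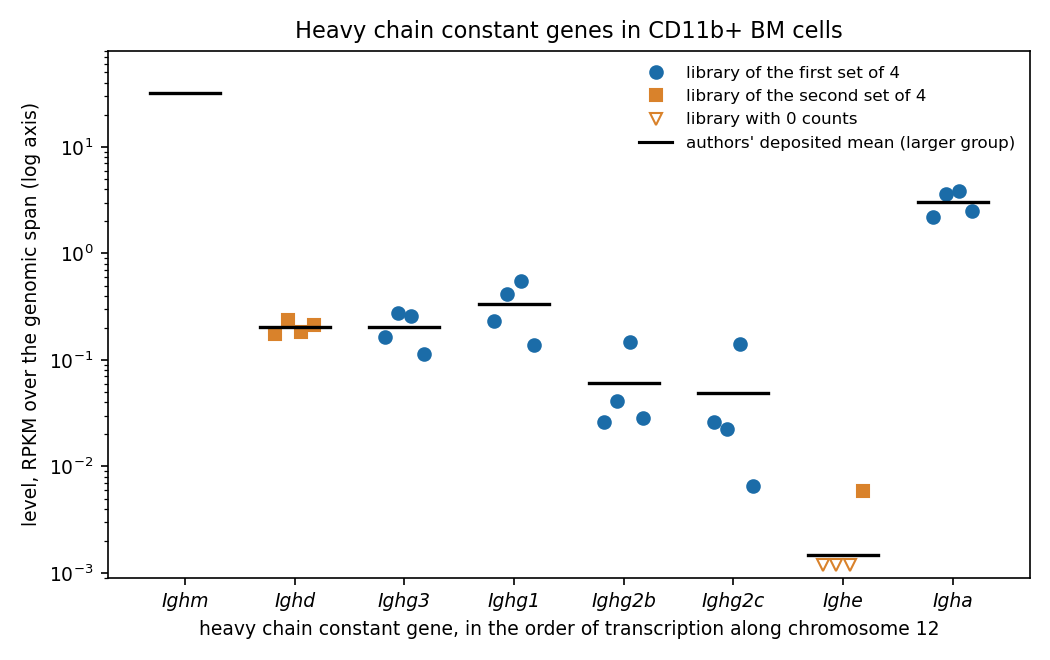
Level of each heavy chain constant gene in RPKM (log axis), over the genomic span except for Ighm, whose length was not recovered. Points are single libraries of the first set (circles) or the second set (squares), open triangles are libraries with 0 counts, and the line is the authors' mean. Ighm at 31.9 RPKM has no library values. Ighg2b and Ighg2c have 1 library far above the other 3.

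Ighg1, the constant gene of IgG1, was the highest of the IgG genes, with an authors' mean of 0.334 RPKM (ENSMUSG00000076614, chr12:113325240-113330523). Its counts were 66, 107, 135 and 31 in the 53.5 M, 48.9 M, 46.6 M and 42.3 M libraries, or 0.233, 0.414, 0.548 and 0.139 RPKM. The 46.6 M library was again the highest, and the 42.3 M library was the lowest. Igha stood 9.14 times above Ighg1 in the deposited level.

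Ighg3, the constant gene of IgG3 and the first IgG gene in the locus, had an authors' mean of 0.202 RPKM (ENSMUSG00000076615, chr12:113356224-113361232). The counts were 44, 67, 60 and 24 in the 53.5 M, 48.9 M, 46.6 M and 42.3 M libraries, or 0.164, 0.274, 0.257 and 0.113 RPKM. Here the 48.9 M and 46.6 M libraries were again the higher pair, and the 42.3 M library was again the lowest.

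Ighg2b, the constant gene of IgG2b, had an authors' mean of 0.0607 RPKM that rested on 57 counts (ENSMUSG00000076613, chr12:113302965-113307933). They fell as 7, 10, 34 and 6 in the 53.5 M, 48.9 M, 46.6 M and 42.3 M libraries, or 0.0263, 0.0412, 0.147 and 0.0286 RPKM. The 46.6 M library held 59.6% of the counts (95% Wilson interval 46.7% to 71.4%) and made up 24.4% of the depth of the set. It was picked as the highest, so its share lies above its part of the depth by construction. The interval does not allow for that choice. Without that library the mean of the other 3 was 0.0320 RPKM.

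Ighg2c, the IgG2c gene that C57BL/6 mice carry, had an authors' mean of 0.0494 RPKM on 34 counts (ENSMUSG00000076612, chr12:113285325-113288932). The counts were 5, 4, 24 and 1 in the 53.5 M, 48.9 M, 46.6 M and 42.3 M libraries, or 0.0259, 0.0227, 0.143 and 0.00656 RPKM. The share of the 46.6 M library, again picked as the highest, was 70.6% (95% Wilson interval 53.8% to 83.2%). The mean without that library was 0.0184 RPKM. Both neighbours in the locus, which are also the pair closest in sequence, thus owed most of their deposited mean to the same library. The 4 IgG genes together summed to 0.646 RPKM, 1.80% of the family's level.

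**Figure D2:**
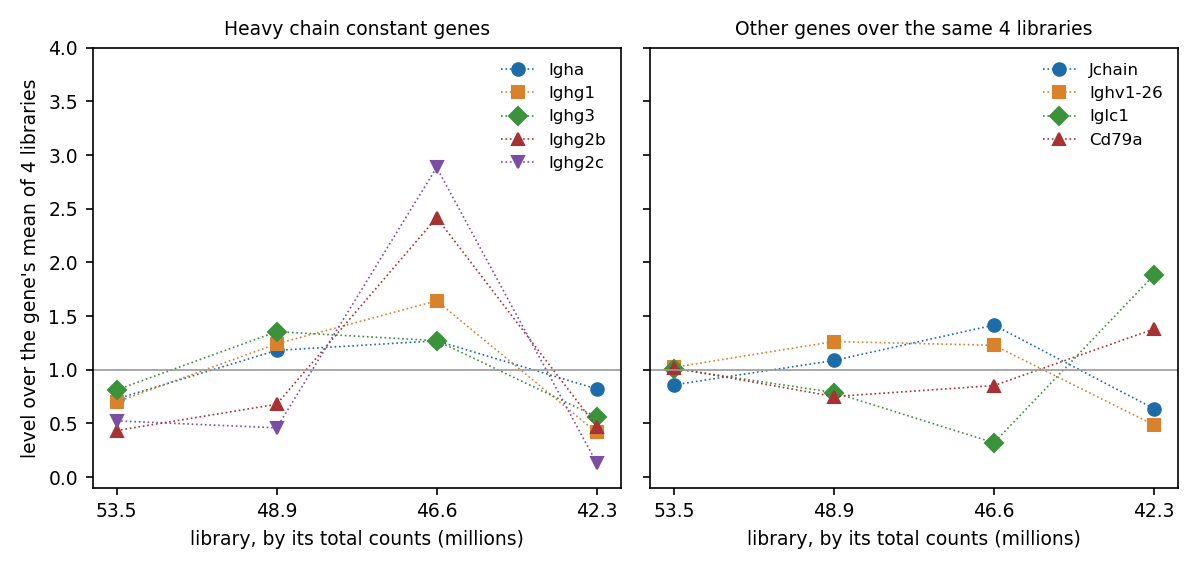
Level of each gene in a library over its mean of the 4 libraries of the first set, for 5 heavy chain constant genes (left) and for 4 other genes named in the text (right), with the libraries placed by their total counts. All 5 members have their lowest or second lowest value in the 42.3 M library, where Iglc1 and Cd79a have their highest.

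Ighd, the δ chain of IgD, is co-transcribed with Ighm in mature naive B cells and joined by alternative splicing. Its authors' mean was 0.202 RPKM (ENSMUSG00000104213, chr12:113406604-113416324), and the deposited level of Ighm was 158 times as high. With both genes taken over exonic length the ratio was 68.2, if all counts were exonic and the level of Ighm, too, had been divided by its span. Its mean came from the second set, with 83, 111, 76 and 88 counts in the 49.2 M, 47.9 M, 42.7 M and 42.2 M libraries, or 0.173, 0.238, 0.183 and 0.214 RPKM. These 4 libraries lay closer together than those of any other member with recovered counts above 1. Ighd and Ighg3 had almost the same deposited level, and their library values overlapped, so their order by deposited level is not read as a difference.

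Ighe, the ε chain of IgE, was at the limit of detection, with an authors' mean of 0.00148 RPKM (ENSMUSG00000087642, chr12:113269260-113273248). That mean was 1 count in the 42.2 M library, 0.00594 RPKM, and 0 counts in the 49.2 M, 47.9 M and 42.7 M libraries. A count of 0 allows up to 3 counts, which is 0.0153, 0.0157 and 0.0176 RPKM of Ighe in those libraries. The level of the other set was not higher.

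The order of the members by deposited level was Ighm, Igha, Ighg1, Ighd, Ighg3, Ighg2b, Ighg2c and Ighe. The means of Ighd and Ighe came from the second set of libraries and those of Igha and the IgG genes from the first, so the order mixes both sets. Among neighbours in this order, Igha was above Ighg1 in each of the 4 libraries. The ranges of the library values of Ighg1, Ighd and Ighg3 overlapped, and so did those of Ighg2b and Ighg2c. Within each of the 4 libraries of the first set, however, Ighg1 was above Ighg3 and Ighg2b above Ighg2c. The gap between Ighg2b and Ighg2c was as small as 0.0263 against 0.0259 RPKM, in the 53.5 M library. Position along the locus did not order the levels: both ends, Ighm and Igha, were the highest, and Ighe, next to Igha, was the lowest.

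**Figure D3:**
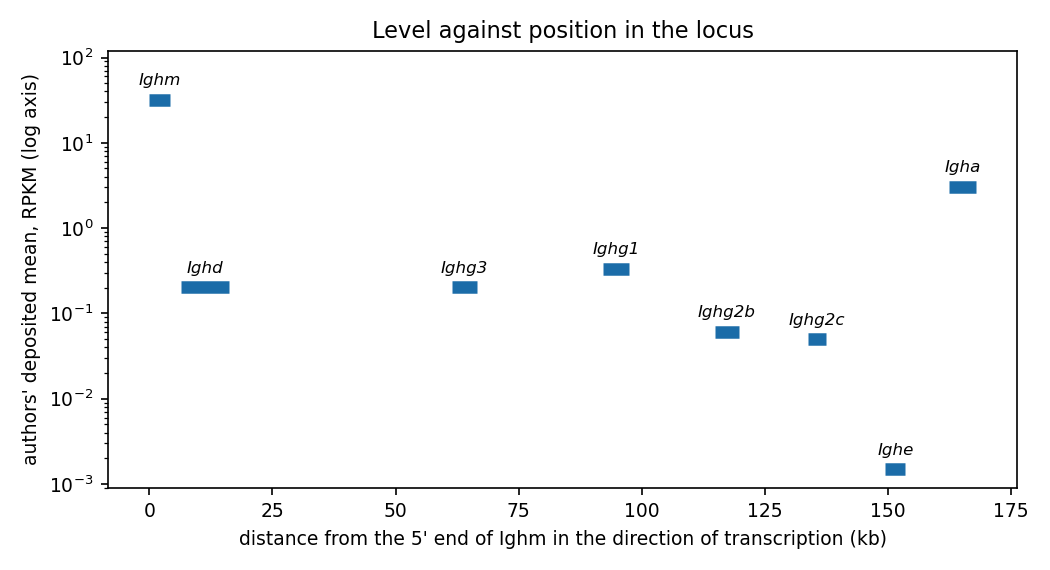
Authors' mean of each heavy chain constant gene in RPKM (log axis) against its distance from the 5′ end of Ighm in kb. Bars span each gene. Ighm and Igha at the outer ends are at 31.9 and 3.05 RPKM, and Ighe is at 0.00148 RPKM.

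The scale of these levels differs from that of most genes in the table. For all 7 members with recovered counts the length was the genomic span, introns included. The same held for 176 of 176 immunoglobulin variable segments with introns, whereas only 13 of 6285 protein coding genes with introns and recovered counts were divided by their span. The span was 1.86 times the exonic length for Ighg2b and 5.12 times for Ighd. Had all counts been exonic, and Ighm divided by its span like the others, the levels over exonic length would be 70.6 RPKM for Ighm, 6.18 for Igha, 1.04 for Ighd, 0.680 for Ighg1, 0.403 for Ighg3, 0.135 for Ighg2c, 0.113 for Ighg2b and 0.00373 for Ighe. On that scale Ighd moved above Ighg1, and Ighg2c above Ighg2b. Where within a gene the counts lay is not known.

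The share of a gene's counts in its highest library was compared with that of other genes of like count. Among 1963 other genes with 20 to 80 counts the median share was 40.0% and the 95th percentile 64.0%. Ighg2c lay above 97.4% of these genes and Ighg2b above 92.6%. Among 835 other genes with 100 to 400 counts the median share was 34.5%. Ighg1 with 39.8% lay above 77.7% of them, Ighg3 with 34.4% above 49.1%, and Ighd with 31.0% above 27.7%. Of these 5 members only Ighg2c exceeded the 95th percentile of the genes of like count. Those other genes were of all kinds. Among them, Ighv variable segments with 20 to 80 counts ran from 31.8% for Ighv1-63 to 100% for Ighv1-12 and Ighv1-50. Several, such as Ighv1-55 at 92.3%, lay above Ighg2c, so a share this high was not particular to Ighg2c among immunoglobulin genes.

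**Figure D4:**
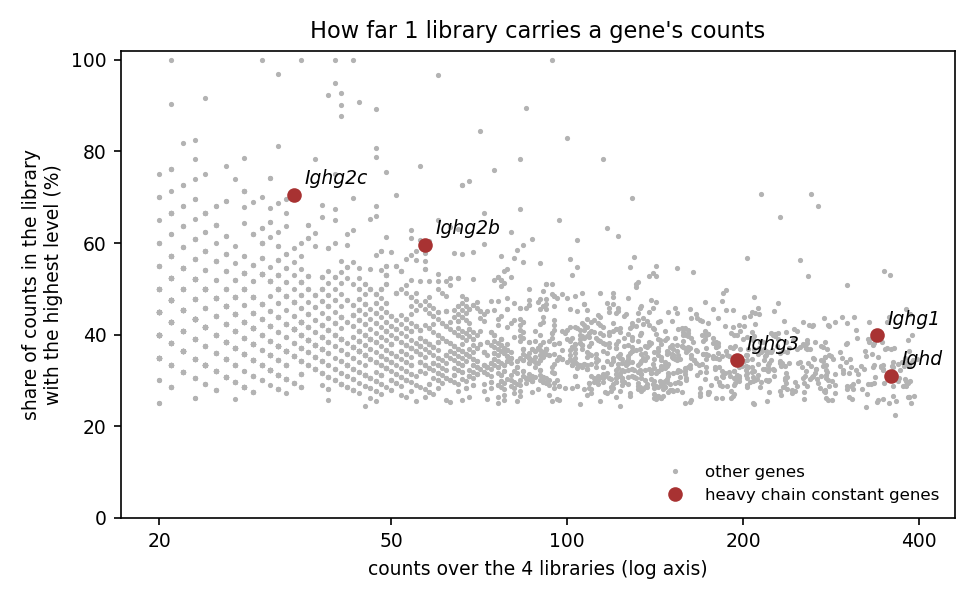
Share of a gene's counts that fell in the library with its highest level, in percent, against its counts over 4 libraries (log axis). Grey points are other genes and red points 5 heavy chain constant genes. Ighg2c and Ighg2b stand high at 70.6% and 59.6%, while Ighg3, Ighg1 and Ighd lie among the other genes. Some of the grey points above Ighg2c are Ighv variable segments.

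The variable segments, which supply the antigen-binding exon joined to these constant genes, gave a second view of the same chains. Of 115 Ighv segments in the table, 94 had a level above 0 and 53 reached 0.1 RPKM, with a summed level of 43.0 RPKM against 35.8 RPKM for the constant genes. The length behind Ighm, which holds most of the constant genes' sum, is not known. Ighv1-26 alone reached an authors' mean of 21.8 RPKM. It had 517, 583, 541 and 194 counts in the 53.5 M, 48.9 M, 46.6 M and 42.3 M libraries, or 22.3, 27.5, 26.7 and 10.6 RPKM, lowest in the same library as Ighg1, Ighg3 and Ighg2c. Ighv1-64 had 2.26 RPKM and Ighv3-8 had 1.42 RPKM.

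Ighv1-80 had an authors' mean of 1.15 RPKM and ran the other way. It held 76 of its 85 counts in the 42.3 M library, where it stood at 4.15 RPKM, and 2, 1 and 6 counts in the 53.5 M, 48.9 M and 46.6 M libraries. Thus the library with the fewest IgG counts held nearly all counts of this segment. Without that library the mean of the other 3 was 0.144 RPKM. All 94 segments with a level had recovered counts, 49 of them from the first set. Their summed counts in that set were 768, 878, 814 and 436 in the 53.5 M, 48.9 M, 46.6 M and 42.3 M libraries. Ighv1-26 alone supplied 517, 583, 541 and 194 of these counts, so the sums largely follow that segment and not the segments as a group. Of the joining segments, Ighj1, Ighj3 and Ighj4 had 5, 5 and 4 counts, and Ighj2 was listed at 0, as were all 17 diversity segments named Ighd with a number, which are only a few bases long.

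The partners of the heavy chains were also present. Among 6 light chain constant and joining chain genes, 5 reached at least 1 RPKM. Igkc, the κ light chain constant gene, had the highest authors' mean with 70.0 RPKM. Iglc1 had 3.55 and Iglc2 2.49 RPKM, and Iglc4 was listed at 0. Jchain, the chain that links IgM and IgA into polymers, had an authors' mean of 3.07 RPKM over exonic length. Its counts of 355, 410, 510 and 208 in the 53.5 M, 48.9 M, 46.6 M and 42.3 M libraries were highest in the same library as those of Igha. Iglc1, a λ light chain constant gene, had 87, 62, 24 and 128 counts in these libraries, so it was lowest where Igha and Ighg1 were highest.

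Genes of the B cell receptor and B cell surface were detected at lower levels, with 8 of 9 at 0.1 RPKM or more and 3 at 1 or more. Btk, a kinase that myeloid cells share with B cells, had 22.3 RPKM, Cd79b 3.54, Cd79a 1.78 and Cd22 0.620 RPKM. Cd79a, a signalling chain of the B cell receptor, had 141, 95, 103 and 151 counts in the 53.5 M, 48.9 M, 46.6 M and 42.3 M libraries, highest in the library where the 4 IgG genes had their fewest counts. In bulk RNA, fewer cells of a type and less RNA per cell cannot be told apart.

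Genes of V(D)J recombination and the surrogate light chain, which act in B cell precursors, had a lower median level, 0.101 RPKM, than the other lists of antibody genes described here, markers aside, with 3 of 6 at 0.1 RPKM or more and 0 at 1. Dntt had 0.154, Rag1 0.114, Vpreb2 0.104 and Vpreb1 0.0990 RPKM. Of the listed genes of class switch recombination, 11 reached 1 RPKM, led by the repair factors Msh6 at 5.27, Rif1 at 3.54, Xrcc6 at 2.13 and Apex1 at 1.91 RPKM, which other dividing cells also express.

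Among 13 regulators of B lineage and plasma cells, 10 reached 0.1 RPKM and 5 reached 1. Xbp1, which drives antibody secretion in plasma cells and is also used in myeloid cells, had 28.0 RPKM, Tcf3 had 7.18, Pou2f2 2.76 and Ell2 2.34 RPKM. The Fc receptors, the myeloid side of antibody biology, had 8 of 10 genes at 0.1 RPKM or more. The common signalling chain Fcer1g had 271 RPKM, the IgG receptors Fcgr3 162 and Fcgr4 41.8, and the inhibitory receptor Fcgr2b 12.6 RPKM.

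The label was checked against marker genes. All 13 myeloid markers in the table had at least 24.6 RPKM, led by the granulocyte genes S100a9 at 42151 RPKM and S100a8 at 19134 RPKM. Itgam, which encodes CD11b itself, was listed as a marker but not found under that name. It was not analysed here, so this check lacks it. The 5 B cell markers ran between 0.264 and 3.54 RPKM and the 4 plasma cell markers between 0.0507 RPKM and 0.368 RPKM for Mzb1, with Sdc1 at 0.0997 RPKM, and none was at 0. The 4 T cell markers ran between 0.00871 RPKM and 1.97 RPKM for Cd3d, with Cd4 at 1.08 RPKM. NK cell markers reached 0.560 RPKM for Ncr1 and 0.255 for Klrb1c, and basophil and mast cell markers 2.78 RPKM for Mcpt8 and 0.819 for Cpa3. Erythroid markers reached 57.6 RPKM for Hbb-bs and 26.7 for Hba-a1. Of the B1 cell markers, Spn had 47.2 RPKM and is also a leukocyte surface protein of myeloid cells, while Zbtb32 had 0.0707 RPKM and Cd5, the lowest of the 3, had 0.0322 RPKM. The part of B lineage cells in the heavy chain levels was not tested.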

How the data were processed

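RNA was sequenced by the authors as stranded, ribosomal RNA-depleted, paired-end libraries. The submitters' processing notes name GRCm38 and edgeR, and the authors describe a negative binomial model. The aligner and the annotation release were not given in the labels or the methods. The deposited level is RPKM averaged over the samples of a group by the authors, who kept the larger group mean of each gene. The remaining 5 columns of the deposited table hold the authors' comparison (log2 fold change, fold change, p-value, FDR p-value and Bonferroni value) and were not used, nor was the shorter table of called genes. No test between the groups was made.

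Gene lengths came from GENCODE M21, which held 40934 of the 41018 IDs. Level times length was solved for whole counts in 4 libraries at a relative tolerance of 1e-15, over the exonic length and the genomic span and over both sets of libraries. A gene was used only where 1 solution existed and at most 0.05 chance matches were expected. Of 15702 genes with up to about 400 counts, 15046 (95.8%) had 1 solution, 643 had none and 13 had several. The procedure was tested on simulated data whose mean counts per library were lower than those of Igha. Depth was 42.2 M to 53.5 M counts, and whether a read pair was counted once is not stated.

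The members and the gene lists were chosen with earlier results of these data known. Besides the 8 members, named genes were the 4 highest of each list and of the Ighv segments, list genes listed at 0 and, of markers, the 2 highest. The Ighj segments fall outside this rule and were named after their values were seen. Cd5 was named likewise. Of the class switch recombination list, 1 gene is not reported here. Alternatives were other length scalings, level filters of 0.1 and 1, other reference genes and leaving out a library. The recovery of counts and all uses of it were decided after the values were seen. Python 3.11.15, pandas 2.3.3, NumPy 2.4.6, SciPy 1.17.1 and Biopython 1.88 were used. No promoter or protein sequence of a member was used here.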

Additional observations from a re-analysis of the deposited data

Results flagged for a closer look

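Of 30 checked genes with recovered counts, 7 of them heavy chain constant genes, 4 had 1 library far from the other 3 of their set. Chance marks about 1 group in 20 in this way. Ighg2b stood at 0.147 RPKM in the 46.6 M library, and Ighg2c at 0.143 RPKM in the same library. Ighe had its only count in the 42.2 M library, 0.00594 RPKM, and a gene with 1 count always stands apart in this way, so its case says nothing. Ighv1-80, a variable segment, stood at 4.15 RPKM in the 42.3 M library.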

How the results depend on the processing

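The count of members at their place in the deposited order of 8 was 6 with the level multiplied by exonic length, 6 with the level multiplied by genomic span and 4 with the counts divided by exonic length. In each of these, Ighm, Igha and Ighe kept places 1, 2 and 8. With the level multiplied by exonic length, only Ighd and Ighg3, almost equal in deposited level, traded places. The last 2 scalings and leaving out a library were chosen after seeing the data. The 8 members detected became 5 at a level of at least 0.1 RPKM and 2 at a level of at least 1 RPKM. The share of Ighm ran from 85.6% to 89.4% over the alternatives. All of these took Ighm as divided by the same kind of length as the other members, which is not known. With protein coding and immunoglobulin genes alone as the reference, the percentile moved for 7 of the 8 members, lower for 6 and higher for Ighe. Among genes at 0.1 RPKM or more it was 93.2 for Ighm, 55.2 for Igha, 17.7 for Ighg1, 10.5 for Ighd and 10.5 for Ighg3, against 96.6, 77.6, 58.8, 55.1 and 55.1 among all genes above 0. Without 1 library, the level ran from 2.77 to 3.32 RPKM for Igha, 0.262 to 0.398 for Ighg1, 0.190 to 0.212 for Ighd, 0.178 to 0.232 for Ighg3, 0.0320 to 0.0721 for Ighg2b and 0.0184 to 0.0637 for Ighg2c. No paired analysis was possible because the deposited level is a pooled group mean whose libraries carry no replicate number. Depth limits Ighe, Ighg2c and Ighg2b most, with 1, 34 and 57 counts.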
